A study of Sus scrofa with 7 samples.

Results

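The LIN28, SALL4 and oncofetal RNA-binding genes were examined in porcine (Sus scrofa) stem cells as a set of 10 genes: LIN28A, LIN28B, SALL4, TRIM71, IGF2BP1, IGF2BP2, IGF2BP3, HMGA1, HMGA2 and DIS3L2. They were chosen by symbol, as let-7 repressors, let-7 targets and their partners in early embryonic cells. Of the 29510 genes listed, 9 were members. The file's own gene name matched 7 of them. LIN28A, listed as LIN28, and IGF2BP1, listed without a name, were matched by their Ensembl identifiers through a table of gene names. TRIM71 had no row and was not analysed here. All 9 genes were among the 17447 that passed the filter on low counts and were tested.

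RNA was sequenced from 3 lines of porcine extra-embryonic endoderm (pXEN) cells, 2 lines of porcine naïve-like ESCs (nESCs) and 2 lines of primed ESCs (pESCs), with 1 library per line. The pXEN lines, at passages 26, 26 and 23, came from inner cell masses of parthenogenetic blastocysts and grew on mouse embryonic fibroblasts in LCDM medium, which held serum, LIF, CHIR99021, (S)-(+)-dimethindene maleate, minocycline hydrochloride and Y27632. The nESC lines, at passages 21 and 22, were also derived from the inner cell mass and grew on mouse embryonic fibroblasts with FGF, LIF, PD0325901, CHIR99021, SB431542 and doxycycline. The pESC lines, both at passage 20, had been converted from naïve-like ESCs and grew on STO feeder cells with activin A, bFGF, EGF and LIF. Cell type and medium, and for pESCs the feeder, therefore change together and cannot be told apart, while LIF was common to the media of all 3 cell types.

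LIN28A and LIN28B are RNA-binding proteins that block the maturation of let-7, a family of microRNAs that rises as embryonic cells differentiate. The 3 IGF2BP proteins bind and stabilize mRNAs, and the chromatin proteins HMGA1 and HMGA2, like IGF2BP1, IGF2BP2 and IGF2BP3, belong to the oncofetal genes that let-7 represses. DIS3L2 is the exonuclease that degrades let-7 precursors marked with uridines, TRIM71 is a let-7 target and RNA-binding ubiquitin ligase, and SALL4 is a zinc-finger transcription factor of pluripotent and germ cells.

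The total count per library ran from 10408164 to 12995720, and 3 counts, taken as the floor of detection, corresponded to between 0.224 and 0.307 CPM, for counting error only. The 7 tested markers of extra-embryonic endoderm were all higher in pXEN cells than in either ESC type, and the summed level of 8 markers lay between 876 and 1109 FPKM in pXEN cells and between 12.8 and 19.3 FPKM in ESCs. Of the 5 tested pluripotency markers, 2 were lower in pXEN cells than in each ESC type, SOX2 (0, 30 and 0 counts in pXEN lines 1, 2 and 3) and ESRRB (0 counts in all 3), and 3 were higher, NANOG, OTX2 and ZIC2. NANOG was at 0 and 0.148 FPKM in the nESC lines, and POU5F1 had at most 5 counts in any library. With other assays, the paper reports OCT4 (POU5F1) and NANOG in nESCs but not in pXEN cells, and OCT4 in primed ESCs. Why the counts on the listed rows differ from those assays was not tested. The trophectoderm markers summed to between 41.0 and 44.6 FPKM in pESCs and to at most 1.81 FPKM elsewhere, and the 3 tested, CDX2, GATA3 and TFAP2C, were higher in pESCs than in both other cell types. Their part in the differences of pESCs was not tested. The library of pXEN line 2 stood apart. Its 13 fibroblast markers summed to 254 FPKM against 18.6 and 21.1 FPKM in lines 1 and 3, with 11 markers above the floor against 7 and 8, and it held 38 counts on chromosome Y against 1 and 3. The fibroblast sum lay between 35.5 and 40.7 FPKM in nESCs and between 70.6 and 102 FPKM in pESCs, so it also differed between cell types, and its part in the results was not tested. In bulk RNA, fewer cells that express a gene and less RNA per cell cannot be told apart.

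LIN28A and SALL4 were higher in pXEN cells than in both ESC types, HMGA1 and HMGA2 were lower than in both, and LIN28B and IGF2BP1 were lower than in pESCs. IGF2BP2, IGF2BP3 and DIS3L2 passed the test in no comparison. Against nESCs, 2 of the 9 genes were higher in pXEN cells and 2 lower (edgeR's quasi-likelihood test, adjusted p below 0.05), where 54.5% of all genes tested were called in either direction, 28.3% higher and 26.2% lower. Against pESCs, 2 were higher and 4 lower, where 48.3% of all genes tested were called, 23.9% higher and 24.4% lower. Between the ESC types, LIN28A and LIN28B were higher in pESCs, where 32.2% of all genes tested were called and 19% called higher, and 0 of the 9 were lower, where 13.3% of all genes were. That count was also 0 at an unadjusted p below 0.05 and with DESeq2. In CPM the lines of the groups did not overlap for 6 of the 9 genes in each comparison, where this held for 70.9%, 68.1% and 72.5% of all genes tested. The counts without overlap are near this background, and nothing particular to the 9 genes is read from any of these counts. Without pXEN line 2 the counts were 2 higher and 2 lower against nESCs, 2 higher and 4 lower against pESCs, and 3 higher and 0 lower between the ESC types. Of the 17264 genes tested in that fit, 5212 were higher and 5147 lower against nESCs, and 4572 and 4994 against pESCs. Between the ESC types 4213 were higher and 3353 lower. The median log2 fold change of the 9 genes was −0.22 against nESCs, −0.33 against pESCs and 0.14 between pESCs and nESCs, beside medians over all genes tested of zero, −0.01 and 0.01. Each cell type enters 2 of the 3 comparisons, so they are not independent of each other.

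**Figure D1:**
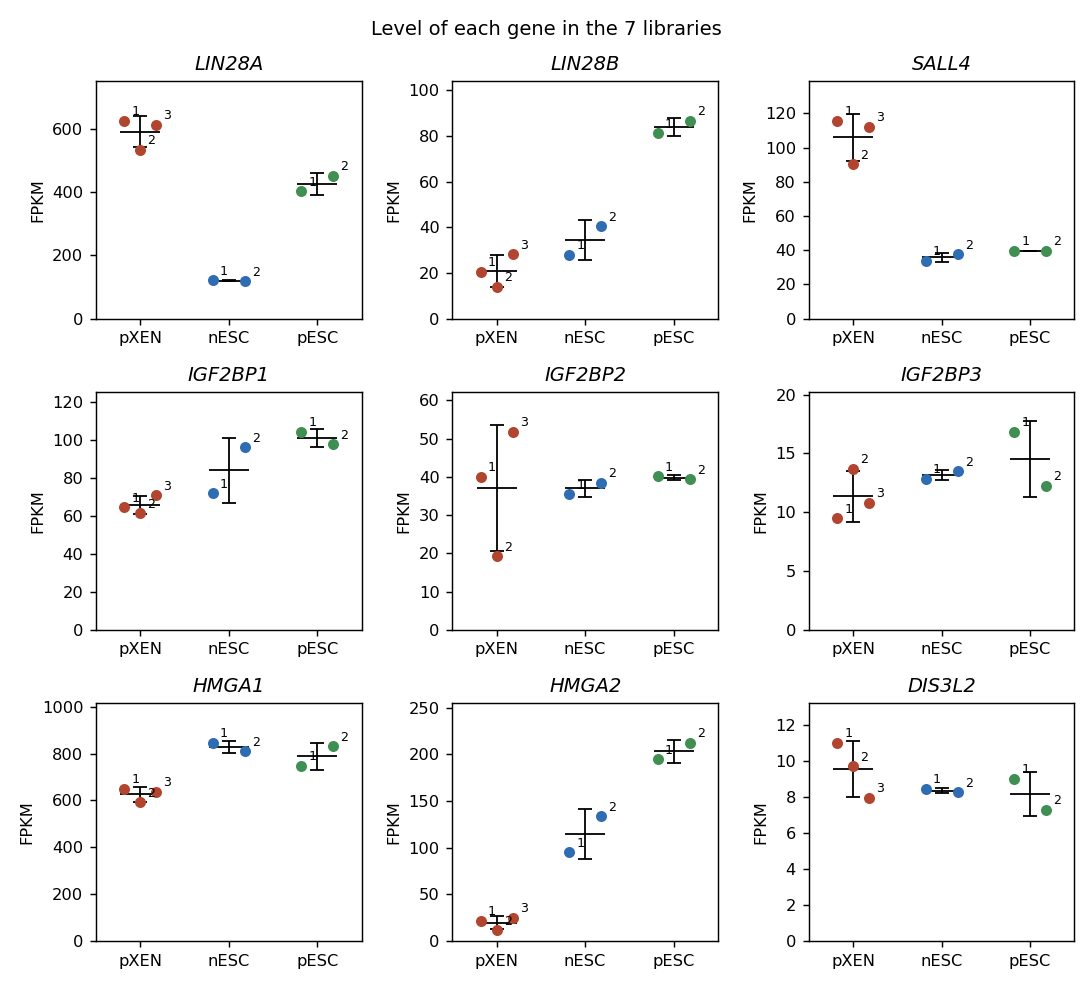
Level of the 9 genes in FPKM (vertical axis, from 0) in the 3 cell types. Each point is 1 line with its number, the long bar is the mean and the whiskers are the SD (n = 3 pXEN, 2 nESC and 2 pESC lines). LIN28A and SALL4 were highest in pXEN cells and HMGA2 lowest, while IGF2BP2 ranged from 19.2 to 51.8 FPKM among the pXEN lines alone.

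LIN28A (ENSSSCG00000003557, chromosome 6, 77358779 to 77371149 in Sscrofa10.2, minus strand) had 625, 534 and 612 FPKM in pXEN lines 1, 2 and 3. It had 121 and 118 FPKM in the nESC lines and 402 and 451 FPKM in the pESC lines. The 3 cell types did not overlap, and their order was pXEN, pESC and nESC, with means of 590 ± 49.2 (SD, n = 3), 426 ± 34.7 (SD, n = 2) and 120 ± 2.03 FPKM (SD, n = 2). Neighbours in this order all differed beyond the spread. The log2 fold change was 2.30 ± 0.12 (SE) against nESCs, which is 4.92-fold (edgeR, adjusted p = 3.65e-06). Against pESCs it was 0.48 ± 0.11 (SE), which is 1.39-fold (adjusted p = 0.00762). This smaller difference was no longer called without pESC line 1 (0.39, adjusted p = 0.0913). Between pESCs and nESCs it was 1.82 ± 0.12 (SE), which is 3.53-fold (adjusted p = 4.67e-05). The other genes of chromosome 6 had a median log2 fold change of −0.03 against pESCs and 0.04 between the ESC types.

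LIN28B (ENSSSCG00000004365, chromosome 1, 80445447 to 80615997, plus strand), the paralogue of LIN28A, followed another order. It had 20.5, 14.0 and 28.2 FPKM in the pXEN lines, 28.1 and 40.5 FPKM in the nESC lines, and 81.2 and 86.8 FPKM in the pESC lines. Both pESC lines lay above all other lines, while the highest pXEN line met the lowest nESC line. Means were 84.0 ± 3.96 FPKM (SD, n = 2) in pESCs, 34.3 ± 8.77 (SD, n = 2) in nESCs and 20.9 ± 7.11 (SD, n = 3) in pXEN cells. It was 4.0-fold lower in pXEN cells than in pESCs (log2 fold change −2.0 ± 0.27 SE, adjusted p = 0.00062). It was 2.43-fold higher in pESCs than in nESCs (1.28 ± 0.30 SE, adjusted p = 0.0141), a call lost without nESC line 1 (adjusted p = 0.103), pESC line 1 (0.0614) or pESC line 2 (0.0764). The difference between pXEN cells and nESCs was −0.72 ± 0.28 (SE) with an adjusted p of 0.0568, just outside the threshold. Over the alternatives the adjusted p ran from 0.0136 without pXEN line 3 to 0.343 without nESC line 2, where the value was −0.43, and it passed in 5 of 15, DESeq2 among them (0.0399).

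LIN28A therefore made up most of the LIN28 FPKM in all 7 lines, and its share differed between lines. It was 96.8%, 97.4% and 95.6% in the pXEN lines, 81.2% and 74.5% in the nESC lines, and 83.2% and 83.9% in the pESC lines. The shares of the pXEN lines did not overlap with those of the ESC lines. The summed level of both genes was 611 ± 54.8 FPKM in pXEN cells (SD, n = 3), 510 ± 38.7 in pESCs (SD, n = 2) and 154 ± 6.74 in nESCs (SD, n = 2). Shares were not tested. Levels of different genes are compared here per length of the listed gene model, and reads outside a model were not counted. The models held 618 bases for LIN28A and 792 for LIN28B, and 327 for HMGA2 against 1683 for HMGA1. For IGF2BP1, IGF2BP2 and IGF2BP3 they held 2658, 3942 and 672 bases. Shares of the IGF2BP and HMGA genes therefore compare models of unlike length.

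**Figure D2:**
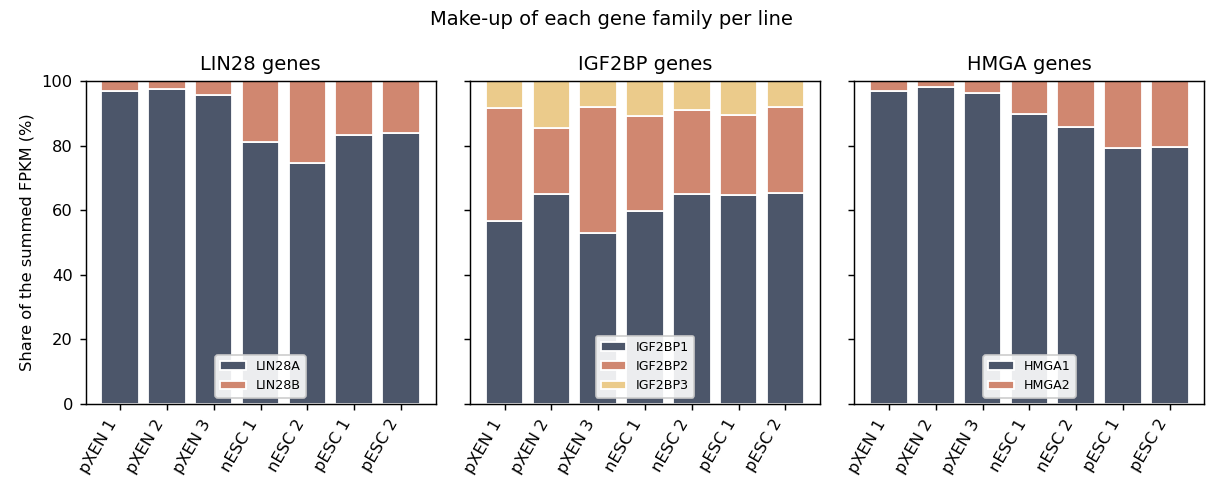
Share of each gene in the summed FPKM of its family (vertical axis, percent), with 1 bar per line. LIN28A held between 95.6% and 97.4% of the LIN28 sum in the pXEN lines and between 74.5% and 83.9% in the ESC lines.

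SALL4 (ENSSSCG00000007479, chromosome 17, 59524384 to 59596953, minus strand) had 116, 90.4 and 112 FPKM in the pXEN lines. It had 33.8 and 37.7 FPKM in the nESC lines and 39.8 and 39.6 FPKM in the pESC lines. All pXEN lines lay above all ESC lines. The means were 106 ± 13.7 FPKM (SD, n = 3) in pXEN cells, 39.7 ± 0.117 (SD, n = 2) in pESCs and 35.8 ± 2.79 (SD, n = 2) in nESCs. It was 2.95-fold higher in pXEN cells than in nESCs (log2 fold change 1.56 ± 0.13 SE, adjusted p = 4e-05) and 2.69-fold higher than in pESCs (1.43 ± 0.13 SE, adjusted p = 9.32e-05). The pESC lines lay just above the nESC lines, and this difference did not pass the test (0.14 ± 0.14 SE, adjusted p = 0.49). The median of the other genes on chromosome 17 was −0.12 and −0.11 in these comparisons with pXEN cells. The part of the chromosome in the SALL4 values was not tested.

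Of the other SALL genes, 1 was higher and 2 were lower in pXEN cells than in each ESC type. SALL1, a paralogue that acts in kidney and limb development, had 61.5, 40.3 and 66.9 FPKM in pXEN cells, 4.51 and 4.61 FPKM in nESCs, and 13.3 and 12.5 FPKM in pESCs. Against both ESC types it was higher in pXEN cells (log2 fold changes 3.62 and 2.13, adjusted p = 9.81e-06 and 0.000131). SALL2 was lower in both comparisons (−1.01 and −1.09, adjusted p = 0.000699 and 0.000598). SALL3 had 0, 0 and 1 counts in pXEN cells, 615 and 597 in nESCs and 24 and 16 in pESCs (adjusted p = 1.94e-06 against nESCs and 0.000385 against pESCs). The pXEN cells thus held SALL1 and SALL4 at higher levels than ESCs, and SALL2 and SALL3 at lower levels. Of the 11 tested genes of NuRD, the deacetylase complex that SALL4 binds, 1 was higher and 4 lower in pXEN cells than in nESCs (median −0.08), and 1 was higher and 2 lower than in pESCs (median 0.05). The shares over all genes tested were 28.3% higher and 26.2% lower against nESCs and 23.9% and 24.4% against pESCs, and nothing particular to NuRD is read from these counts. The called genes with the largest differences included the histone chaperone RBBP7 (−2.13, adjusted p = 2.18e-05 against nESCs), the remodeller CHD3 (−0.64 against nESCs and 0.34 against pESCs, adjusted p = 0.000826 and 0.0217), CHD4 (−0.64 against pESCs, adjusted p = 0.000802) and GATAD2A (−0.50 in both, adjusted p = 0.00183 and 0.00224).

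HMGA2 (ENSSSCG00000000471, chromosome 5, 33376171 to 33516370, plus strand), a chromatin architectural protein of embryonic cells, had 21.7, 11.4 and 25.0 FPKM in the pXEN lines. It had 95.2 and 133 FPKM in the nESC lines and 195 and 212 FPKM in the pESC lines. The cell types did not overlap, in the order pESC, nESC and pXEN. The means were 203 ± 12.4 (SD, n = 2), 114 ± 27.0 (SD, n = 2) and 19.4 ± 7.09 FPKM (SD, n = 3). In pXEN cells HMGA2 was 5.94-fold lower than in nESCs (log2 fold change −2.57 ± 0.29 SE, adjusted p = 0.000182) and 10.5-fold lower than in pESCs (−3.39 ± 0.29 SE, adjusted p = 6.44e-05). The pXEN counts behind these values were 70, 43 and 90. The difference between pESCs and nESCs was 0.82 ± 0.30 (SE, adjusted p = 0.0695) and was not called, although it was called when the pXEN lines were left out (adjusted p = 0.00732), without pXEN line 2 (0.00452) and with DESeq2 (0.0409). A second row carried the name HMGA2 on chromosome 1, with at most 2 counts in any library.

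HMGA1 (ENSSSCG00000001526, chromosome 7, 34984737 to 34990089, plus strand), the paralogue of HMGA2, differed less. It had 649, 591 and 638 FPKM in the pXEN lines, 846 and 809 FPKM in the nESC lines and 749 and 830 FPKM in the pESC lines. All pXEN lines lay below all ESC lines, and the ESC types overlapped. HMGA1 was 1.33-fold lower in pXEN cells than in nESCs (log2 fold change −0.41 ± 0.10 SE, adjusted p = 0.00792) and 1.25-fold lower than in pESCs (−0.33 ± 0.10 SE, adjusted p = 0.0243). The second of these calls was lost without pESC line 1 (adjusted p = 0.0524), pESC line 2 (0.179) or pXEN line 3 (0.0502). HMGA2 made up 2.97 ± 0.968% (SD, n = 3) of the summed HMGA FPKM in pXEN cells, 12.1 ± 2.85% (SD, n = 2) in nESCs and 20.5 ± 0.201% (SD, n = 2) in pESCs. Of the 6 tested HMGB and HMGN genes, which encode other abundant chromatin proteins, 3 were lower against nESCs (median −0.66), where 26.2% of all genes tested were, and 1 was higher and 1 lower against pESCs (median −0.12), beside 23.9% and 24.4% of all genes. HMGN4 was lower in both comparisons (−2.01 and −1.79, adjusted p = 1.98e-05 and 5.82e-05).

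IGF2BP1 (ENSSSCG00000023128, chromosome 12, 25163100 to 25209807, plus strand), which protects MYC mRNA from decay, had 64.6, 61.5 and 70.7 FPKM in the pXEN lines. It had 72.0 and 96.2 FPKM in the nESC lines and 104 and 97.8 FPKM in the pESC lines. The pXEN lines lay below all ESC lines, though nESC line 1 was close to pXEN line 3. IGF2BP1 was 1.53-fold lower in pXEN cells than in pESCs (log2 fold change −0.62 ± 0.14 SE, adjusted p = 0.00689), a call lost without pESC line 1 (adjusted p = 0.0588). Against nESCs the value was −0.36 ± 0.14 (SE, adjusted p = 0.0535), which did not pass. It was −0.14 (adjusted p = 0.445) without nESC line 2 and −0.57 (adjusted p = 0.0142) without nESC line 1. Between the ESC types it was 0.25 ± 0.15 (SE, adjusted p = 0.244), and it ran from 0.05 without nESC line 1 to 0.48 without nESC line 2, neither of them called.

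IGF2BP2 (ENSSSCG00000011795, chromosome 13, 133022540 to 133065865, minus strand), the family member that persists in adult tissues, had 40.0, 19.2 and 51.8 FPKM in the pXEN lines, 35.4 and 38.5 FPKM in the nESC lines, and 40.2 and 39.4 FPKM in the pESC lines. Line 1 of the pXEN cells lay within the ESC range, line 3 above it and line 2 below it. The log2 fold change was −0.01 ± 0.33 (SE) against nESCs (adjusted p = 0.995) and −0.10 ± 0.33 (SE) against pESCs (adjusted p = 0.83). Without pXEN line 2 the values were 0.31 (adjusted p = 0.0581) and 0.21 (adjusted p = 0.174). Chromosome 13 as a whole differed between the pXEN lines. Over 655 of its genes, the median log2 deviation from the mean of the pXEN lines was 0.15 and 0.13 in lines 1 and 3 and −0.27 in line 2. The median log2 fold change of the 1128 other tested genes of chromosome 13 was 0.47 against nESCs and 0.40 against pESCs. The part of the chromosome in the IGF2BP2 values was not tested.

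**Figure D3:**
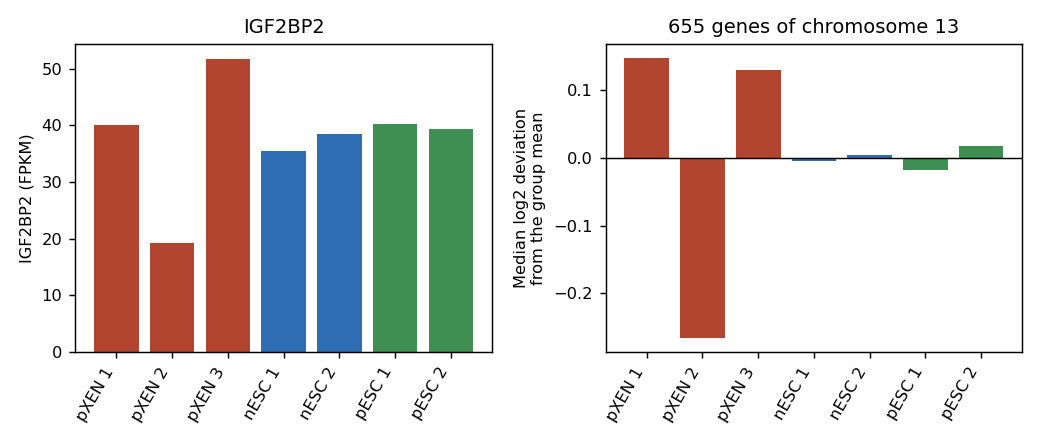
Left, IGF2BP2 in each line (FPKM, bars from 0). Right, the median over 655 genes of chromosome 13 of the log2 deviation of a line from the mean of its cell type. Line 2 was the lowest of the pXEN lines in both panels, with 19.2 FPKM and −0.27. The right panel centres each cell type on its own mean, so it does not compare cell types. For pXEN cells, the other tested genes of this chromosome had median log2 fold changes of 0.47 against nESCs and 0.40 against pESCs.

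IGF2BP3 (ENSSSCG00000029645, chromosome 9, 101677953 to 101725706, plus strand), the third mRNA-binding paralogue, lay between 9.51 and 16.8 FPKM in all 7 lines, from 63 to 143 counts. Its log2 fold changes were −0.22 ± 0.26 (SE, adjusted p = 0.499) and −0.35 ± 0.25 (SE, adjusted p = 0.297) for pXEN cells against nESCs and pESCs, and 0.13 ± 0.28 (SE, adjusted p = 0.767) between the ESC types. IGF2BP1 made up 58.3 ± 6.21% of the summed IGF2BP FPKM in pXEN cells (SD, n = 3), 62.4 ± 3.57% in nESCs (SD, n = 2) and 65.0 ± 0.585% in pESCs (SD, n = 2), and these shares overlapped between cell types. IGF2, the transcript after which the family is named, had 0 counts in every library on its listed row. Of 7 partners of IGF2BP1 in ribonucleoprotein complexes, 1 was higher and 5 were lower in pXEN cells than in nESCs (median −0.31), beside 28.3% and 26.2% of all genes tested, and 1 was lower than in pESCs (median −0.07), beside 24.4%. Without pXEN line 2 the counts against pESCs were 2 higher and 3 lower. In that fit 4572 of all 17264 genes tested were higher and 4994 lower. The poly(A)-binding protein gene PABPC1 was lower in both (−1.08 and −0.64, adjusted p = 0.000169 and 0.00328), and YBX1 was lower than in nESCs (−0.70, adjusted p = 0.00109). Of 7 tested genes of the machinery that writes, erases or reads N6-methyladenosine, the mRNA mark that IGF2BP proteins recognise, 4 were lower than in nESCs (median −0.38) and 3 lower than in pESCs (median −0.09), beside 26.2% and 24.4% of all genes tested. METTL3, the methyltransferase, was among them in both (−0.61 and −0.85, adjusted p = 0.0027 and 0.00061).

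DIS3L2 (ENSSSCG00000022177, chromosome 15, 146381891 to 146596424, plus strand) had 11, 9.69 and 7.94 FPKM in the pXEN lines, 8.44 and 8.25 FPKM in the nESC lines, and 9.0 and 7.27 FPKM in the pESC lines. The cell types overlapped, and the log2 fold changes were 0.19 ± 0.19 (SE, adjusted p = 0.445) against nESCs, 0.24 ± 0.19 (SE, adjusted p = 0.349) against pESCs and −0.05 ± 0.21 (SE, adjusted p = 0.888) between the ESC types. A second row of this name on the minus strand, with 42 to 69 counts, was not called either. Of 14 tested genes of the RNA exosome and the XRN exonucleases, 2 were higher and 7 lower in pXEN cells than in nESCs (median −0.36), and 2 were higher and 6 lower than in pESCs (median −0.35). Over all genes tested, 28.3% were higher and 26.2% lower in the first comparison and 23.9% and 24.4% in the second. The called genes included the exosome nuclease DIS3 (−0.82 and −0.73, adjusted p = 0.00224 and 0.00481), the exosome core gene EXOSC5 (−1.18 and −1.65, adjusted p = 0.00479 and 0.00103) and the cytoplasmic exonuclease XRN1, which was higher in both (0.90 and 0.51, adjusted p = 0.00227 and 0.0319).

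**Figure D4:**
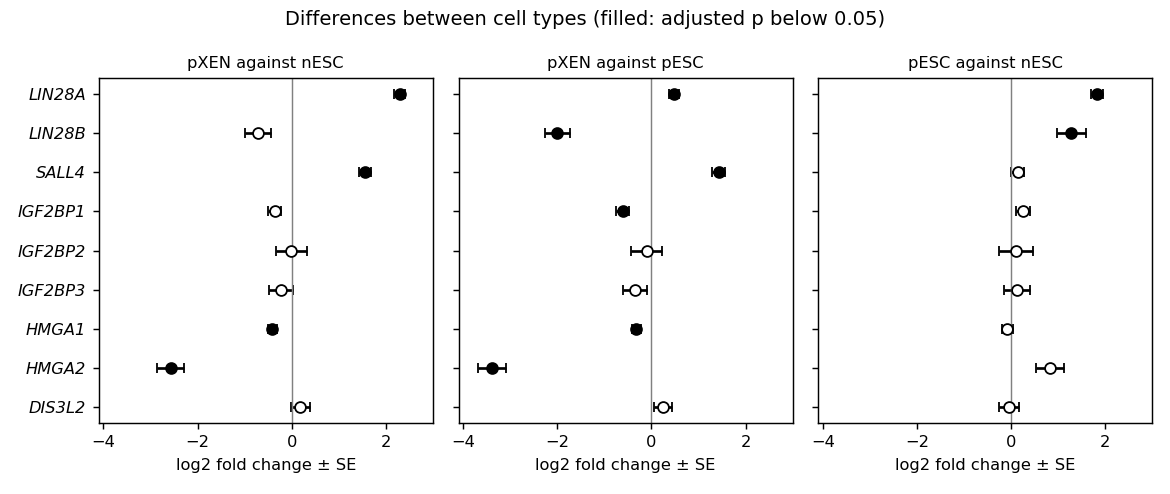
Log2 fold change (horizontal axis) with its SE for the 9 genes in the 3 comparisons, from edgeR. Filled points passed an adjusted p of 0.05. LIN28A lay at 2.30, 0.48 and 1.82, SALL4 at 1.56, 1.43 and 0.14, and HMGA2 at −2.57, −3.39 and 0.82.

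Of 15 genes that make or modify let-7, 1 was higher and 9 were lower in pXEN cells than in nESCs (median −0.41), where 28.3% of all genes tested were higher and 26.2% lower. Against pESCs 1 was higher and 4 were lower (median −0.22), beside 23.9% and 24.4% of all genes. Between pESCs and nESCs 1 was higher and 4 were lower (median −0.16), beside 19% and 13.3% of all genes. The gene called higher each time was AGO4, an Argonaute protein, with log2 fold changes of 1.71, 1.25 and 0.47 (adjusted p = 1.65e-05, 0.000111 and 0.0258). Genes that were lower against nESCs included TARBP2, a DICER1 partner (−0.91, adjusted p = 0.000889), the nuclear processing enzyme DROSHA (−0.73, adjusted p = 0.000726) and the exporter XPO5 (−0.73, adjusted p = 0.000677). TUT4 and TUT7, the uridylyl transferases that act with LIN28A, had values of −0.16 (adjusted p = 0.3) and −0.39 (adjusted p = 0.0273) against nESCs, and of −0.36 (adjusted p = 0.0401) and −0.14 (adjusted p = 0.38) against pESCs. Mature let-7 was not analysed here. Of 10 rows of let-7 or mir-98 precursors, 6 had no count in any library. The only one tested, ssc-let-7d, had 26, 6 and 27 counts in pXEN cells, 11 and 28 in nESCs and 16 and 20 in pESCs. Its log2 fold changes were 0.17, 0.44 and −0.27, and no difference was detectable at these counts.

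Of 21 tested let-7 targets outside the 9 genes, 9 were higher and 3 lower in pXEN cells than in nESCs (median 0.40), beside 28.3% and 26.2% of all genes tested. Against pESCs 4 of them were higher and 7 lower (median 0.06), near the 23.9% and 24.4% of all genes. In pESCs against nESCs 9 were higher and the other 12 were not called (median 0.15), beside 19% of all genes higher and 13.3% lower. Without pXEN line 2 the same comparison gave 10 higher and 1 lower. In that fit 4213 of all 17264 genes tested were higher and 3353 lower. The transcription factor gene MYCN had 80.4, 57.8 and 74.9 FPKM in pXEN cells, 14.0 and 15.8 FPKM in nESCs, and 70.9 and 80.9 FPKM in pESCs. It was higher in pXEN cells and in pESCs than in nESCs (log2 fold changes 2.24 and 2.33, adjusted p = 2.05e-05 and 8.07e-05), while the value between pXEN cells and pESCs was −0.09 (adjusted p = 0.664). The transcription factor genes ARID3A (2.01 and 0.93, adjusted p = 8.44e-06 and 0.000443) and NR6A1 (2.17 and 1.26, adjusted p = 2.02e-05 and 0.000359) were higher in pXEN cells than in both ESC types. PLAG1, a zinc-finger oncogene, was lower in both (−2.33 and −2.48, adjusted p = 0.00307 and 0.00265). INSR, the insulin receptor, had between 0.0609 and 0.359 FPKM in pXEN cells and nESCs and 5.55 and 5.61 FPKM in pESCs (adjusted p = 1.04e-05 for pXEN cells against pESCs).

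**Figure D5:**
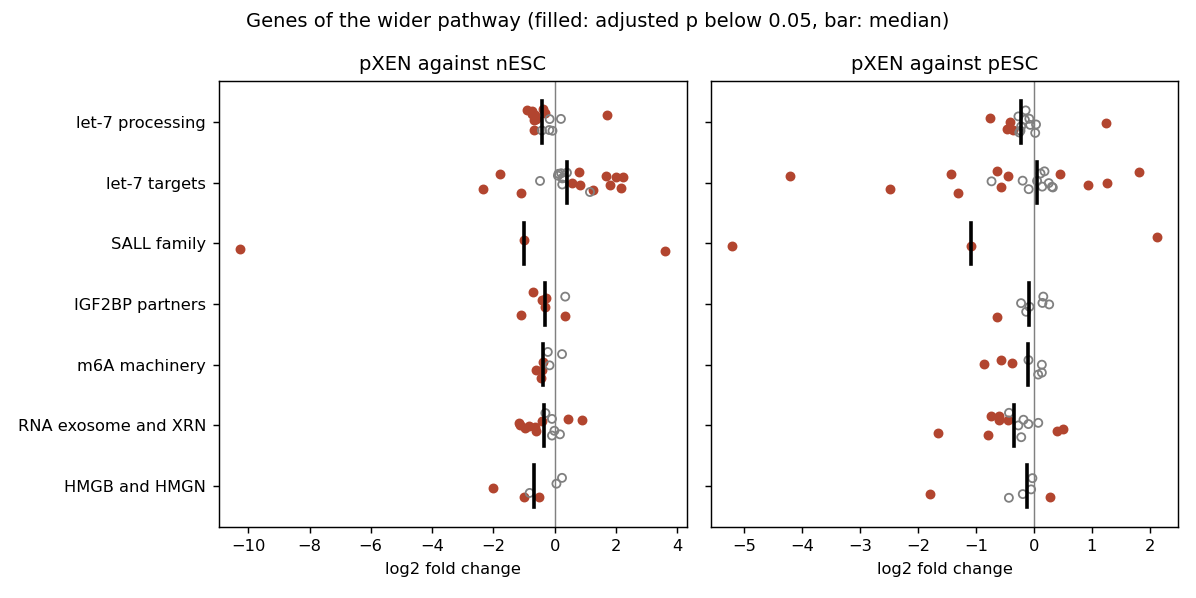
Log2 fold change of pXEN cells against nESCs and pESCs (horizontal axes, with different ranges) for the tested genes of 7 lists. Filled points passed an adjusted p of 0.05 and the bar is the median of the list. The point at −10.26 is SALL3, a fitted value from 1 count in the pXEN cells. The let-7 processing genes had medians of −0.41 and −0.22.

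Among the genes with a mean of at least 10 CPM and a symbol, those closest to LIN28A in pattern over the 7 lines were DSG2, BDH1 and GPRC5C, with root mean square differences of 0.139, 0.147 and 0.156 in gene-centred log2(FPKM + 1), out of 8244 genes searched. DSG2, a desmosomal cadherin, had means of 27.7, 5.38 and 17.4 FPKM in pXEN cells, nESCs and pESCs. Closest to LIN28B were KAT7, RNF19B and CDON (0.204, 0.226 and 0.248). KAT7, a histone acetyltransferase, had means of 23.4, 36.8 and 85.7 FPKM. Closest to SALL4 were ZFYVE1, GOT1 and FANCB (0.0800, 0.0871 and 0.0874), and GOT1, an aspartate aminotransferase, had 96.4, 34.1 and 39.7 FPKM. These likenesses are descriptions over 7 libraries in 3 cell types and carry no test.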

How the data were processed

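The authors deposited read counts per gene, without normalization, and FPKM values (fragments scaled by gene length and library total). Per the submitters' processing notes, reads were aligned with HISAT2 2.0.5 to Sscrofa10.2 and counted with featureCounts 1.5.0-p3. Libraries came from a directional kit after depletion of rRNA. The strand setting of the counting is not given in the sources used here, so reads of overlapping antisense genes may not be separated.

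Counts were tested with edgeR 4.0.16 (quasi-likelihood, TMM, filterByExpr, 1 model of all 7 libraries) in R 4.3.3. P values were adjusted by Benjamini-Hochberg over 17447 genes, with a threshold of 0.05. The alternatives used DESeq2 1.42.0, limma 3.58.1 on log2(FPKM + 1) and log2(FPKM + 0.1), other scaling and filters, the groups compared alone, a replicate block and leaving out each library. No 2 libraries of the same cell type agreed within sampling noise. Lines count as replicates, and p values measure the spread between lines. The script was tested on simulated counts.

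All members are named. From each other list, named genes were taken from the up to 4 called genes with the largest change and no overlap, and lists with 5 or fewer tested genes were named whole. Other genes named in the text, such as TUT4 and TUT7, were added for their role. The members and lists were chosen with earlier results of these data known.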

Additional observations from a re-analysis of the deposited data

How the results depend on the processing

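Over 15 alternative settings, 379 of 405 log2 fold changes of the 9 genes kept their direction and their side of the threshold, 11 passed it newly, 9 lost it and 6 changed sign, all of them values that were not called. Counted as lower in pXEN cells than in nESCs were 4 genes with DESeq2 and 4 with upper-quartile scaling, which added LIN28B and IGF2BP1. Upper-quartile scaling moved the median of all genes tested by −0.16 in that comparison. With 1 library left out, the counts were 2 higher and 2 to 3 lower against nESCs, 1 to 2 higher and 2 to 4 lower against pESCs, and 1 to 3 higher and 0 lower for pESCs against nESCs. The lowest counts against pESCs came without pESC line 1, where LIN28A, IGF2BP1 and HMGA1 were lost, and the lowest between ESC types without nESC line 1, pESC line 1 or pESC line 2, where LIN28B was lost. These fits have fewer samples.

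The sign changes were in 4 results. IGF2BP2 against nESCs was 0.0023 with DESeq2, and with 1 library left out it ran from −0.32 (without pXEN line 3) to 0.31 (without pXEN line 2), with 0.06 without nESC line 2. IGF2BP2 against pESCs ran from −0.41 (without pXEN line 3) to 0.21 (without pXEN line 2). Between ESC types, IGF2BP3 ran from −0.11 (without pESC line 1) to 0.35 (without pESC line 2), and DIS3L2 from −0.20 (without pESC line 1) to 0.10 (without pESC line 2). The cause was not tested. Over all genes, pESCs against nESCs gave 3308 higher and 2313 lower, but 2037 to 2371 higher and 928 to 1341 lower without any 1 of the 4 ESC lines, and 2056 and 1822 with at least 10 counts in every library. For pXEN cells against pESCs, 4168 higher and 4261 lower became 2768 and 2903 without pESC line 1, 2706 and 2847 without pESC line 2, and 2877 and 2771 with at least 10 counts in every library.

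The labels do not say whether the line numbers pair the samples. The differences between lines 1 and 2 correlated at 0.0025, 0.071 and −0.012 between cell types. Each cell type gives 1 such difference, so these values cannot decide whether the lines are paired. With a replicate block on lines 1 and 2, 2 genes were higher and 3 lower against nESCs (LIN28B called, adjusted p = 0.0229), 2 higher and 3 lower against pESCs (HMGA1 lost, adjusted p = 0.0701), and 2 higher and 0 lower between ESC types. Low counts, such as the 63 to 143 counts of IGF2BP3 and those of the let-7 precursors, limit what these libraries can show. Whether depth or another property of the libraries made them low was not tested.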

Other observations

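The IGF axis and other oncofetal genes add values beside the 9 genes. Of 10 tested genes of the IGF axis, 5 were higher and 2 lower in pXEN cells than in nESCs (edgeR, adjusted p below 0.05), and 3 were higher and 5 lower than in pESCs. Over all genes tested, the shares were 28.3% higher and 26.2% lower against nESCs and 23.9% and 24.4% against pESCs. IGFBP5, an IGF-binding protein, had 15.7, 13 and 13.8 FPKM in pXEN cells, 0.0315 and 0.262 FPKM in nESCs, and 6.42 and 6.75 FPKM in pESCs. IGFBP6 had 4.15, 5.22 and 6.06 FPKM in pXEN cells, 0 and 0.214 FPKM in nESCs, and 101 and 107 FPKM in pESCs. The oncofetal proteoglycan gene GPC3 had 902, 688 and 1043 FPKM in pXEN cells against 0.435 and 0.652 FPKM in nESCs and 2.23 and 2.74 FPKM in pESCs (adjusted p = 4.43e-07 and 1.58e-06). AFP, the alpha-fetoprotein gene of yolk sac and fetal liver, was counted 60, 4037 and 37 times in lines 1, 2 and 3 of the pXEN cells, had 0 counts in all ESC lines and was not called (adjusted p = 0.055 and 0.058).

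Of 3 genes known as TRIM71 targets, CDKN1A, a cell cycle inhibitor, was lower in pXEN cells than in nESCs and pESCs (by −3.18 and −3.03 on the log2 scale, with adjusted p of 0.0134 and 0.0193). Its 2 nESC lines had 45.2 and 5.24 FPKM. MBNL1, a splicing regulator, was lower in both (−1.05 and −1.51, adjusted p = 0.00382 and 0.000695). EGR1 had 15.3, 117 and 26.8 FPKM in the pXEN lines, with the high value in line 2, and was not called.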
